A study of Mus musculus with 26 samples.

Results

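Transcripts of 36 genes of the insulin/IGF receptor, PI3K, AKT, mTOR and FOXO route were examined in libraries of the inner cell mass (ICM), 1 library for each of 26 CD-1 mouse embryos. The genes were taken by symbol from a list of pathway components, and all 36 of them were found among the 55254 symbols of the table of transcript levels. Morulae of embryonic day E2.75 from natural matings had been cultured for 24 hours in KSOM medium in 1 of 4 conditions, and their outer cells were then lysed by immunosurgery. The groups were LY294002 at 10 µM with FGF4/heparin at 1 µg/ml (LY+FGF4, 6 ICMs), FGF4/heparin alone (FGF4, 8 ICMs), LY294002 alone (LY, 7 ICMs) and the DMSO vehicle (DMSO, 5 ICMs). No group carried a genetic alteration, and all embryos shared the strain, the stage and the culture time. Embryos of 5 litters had been mixed before they were shared out, so each library is 1 embryo whose litter is unknown.

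PI3K enzymes, each a catalytic subunit held by a regulatory subunit, make the lipid signal PIP3 at the plasma membrane when receptors such as the insulin receptor are active. PIP3 recruits PDK1 and AKT, and AKT then restrains the TSC complex, GSK3 and the FOXO transcription factors, so that mTOR complex 1 can drive protein synthesis. LY294002 blocks the catalytic site of PI3K and also acts on mTOR and other related kinases. In other tissues a blocked pathway can raise transcripts of its own receptors and adaptors through FOXO factors, and FGF signalling is known to steer ICM cells towards primitive endoderm and away from epiblast. Levels are given in TPM, a transcript abundance that is scaled by gene length and to a fixed total per library, so that genes can be compared within an ICM.

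The ICMs expressed both Akt1 and Akt2, and Foxo3, Pik3r2, Gsk3a and Igf2r led their sets of isoforms or receptors in most ICMs. By mean over all ICMs the most abundant components were Eif4ebp1, Eif4e, Akt1s1 and Sgk1. In DMSO ICMs the means of Sgk1 and Akt1s1 exceeded that of Eif4e. For LY against DMSO none of the 32 tested components passed the threshold used, an adjusted p under 0.05 in limma over 12034 genes. Of all genes only 0.374% passed there, so a count of 0 says little about the components. With FGF4 present, Akt1 was higher with LY, the only component past the threshold between LY+FGF4 and FGF4 ICMs, where 3.55% of all genes passed. This call was lost with the number of detected genes in the fit (adjusted p of 0.339 in limma). FGF4 raised Eif4e relative to DMSO, where 2.44% of all genes passed. Between LY+FGF4 and LY ICMs Akt1 and Eif4e were higher and Sgk1 was lower, where 6.3% of all genes passed. No component kept its call against LY with the number of detected genes in the fit. Every LY+FGF4 library had fewer genes detected than every LY library, so that fit cannot separate gene number from treatment. In a library of a whole ICM, fewer cells of a type and less RNA per cell cannot be told apart.

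**Figure D1:**
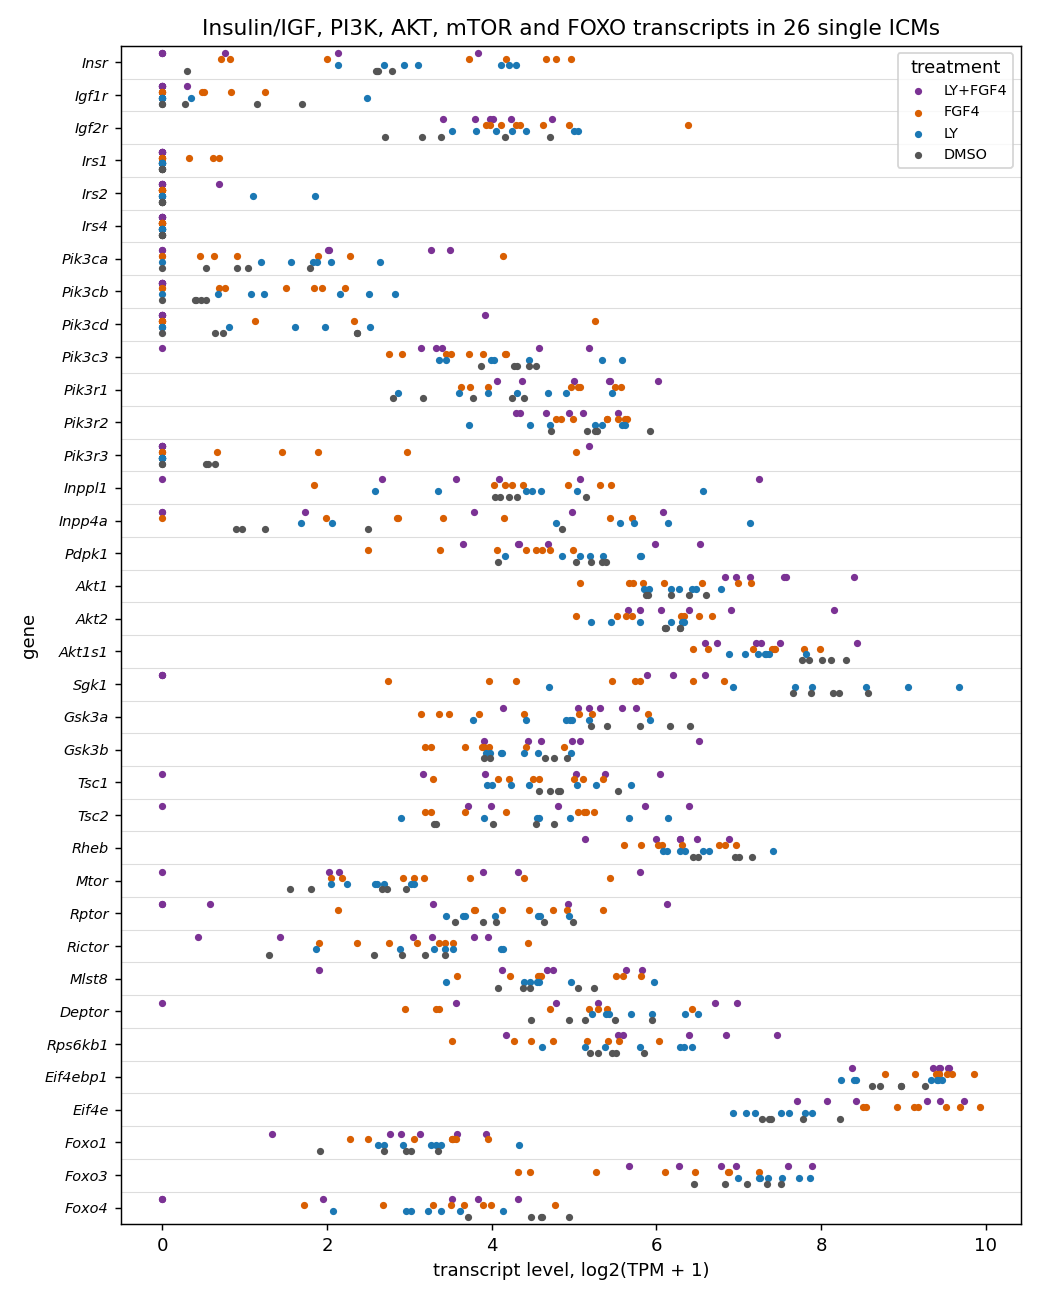
Transcript level of each of the 36 components in each ICM, as log2(TPM + 1) on the horizontal axis, with 1 point per ICM coloured by treatment (6 LY+FGF4, 8 FGF4, 7 LY and 5 DMSO ICMs). By mean over all ICMs Eif4ebp1 and Eif4e lie furthest right, though in DMSO ICMs the means of Sgk1 and Akt1s1 exceed that of Eif4e. The class I catalytic subunits and the Irs adaptors lie near 0, and for Eif4e the 8 FGF4 points all lie to the right of the 5 DMSO points.

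The libraries differed in the number of genes detected. Genes at 1 TPM or more numbered 7486 to 9534 in LY+FGF4 ICMs, 8315 to 10871 in FGF4 ICMs, 9860 to 10215 in LY ICMs and 10212 to 11367 in DMSO ICMs. Fewer than 9000 genes were detected in 4 of the 6 LY+FGF4 and 2 of the 8 FGF4 libraries. The ranges of LY+FGF4 and LY libraries did not overlap, so gene number and treatment cannot be separated between these groups. The summed level of 10 primitive endoderm markers was 767 to 3540 TPM in LY+FGF4 ICMs, 1387 to 5159 TPM in FGF4 ICMs, 186 to 417 TPM in LY ICMs and 683 to 1623 TPM in DMSO ICMs. The summed level of 8 epiblast markers was 244 to 734 TPM in LY+FGF4 ICMs, 178 to 622 TPM in FGF4 ICMs, 760 to 1043 TPM in LY ICMs and 950 to 1381 TPM in DMSO ICMs. Of 10 trophectoderm markers, which mark the cells that immunosurgery lyses, Krt8 and Krt18 among them, the summed level was 231 to 1157 TPM in LY+FGF4 ICMs, 406 to 1231 TPM in FGF4 ICMs, 870 to 1373 TPM in LY ICMs and 708 to 1402 TPM in DMSO ICMs. Of 4 markers of blood and fibroblasts, Hbb-bs and Ptprc were listed at 0 in every library. The summed level of the 4 reached 11.1 TPM in LY+FGF4 ICMs, 84.7 TPM in FGF4 ICMs, 16.2 TPM in LY ICMs and 19 TPM in DMSO ICMs.

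Among the receptors, the transcript of Igf2r, which binds IGF2 and carries it to lysosomes, was the most abundant in 22 of 26 ICMs. Igf2r was at 9.63 to 25.7 TPM in LY+FGF4 ICMs, 14.3 to 82.8 TPM in FGF4 ICMs, 10.4 to 32.0 TPM in LY ICMs, and 5.52, 7.87, 9.41, 16.9 and 25.2 TPM in the 5 DMSO ICMs. The groups overlapped, and none of the comparisons of Igf2r passed the threshold. Insr, the insulin receptor, had a lowest, median and highest level of 0, 0.35 and 13.2 TPM in LY+FGF4 ICMs, 0.64, 14.6 and 30.2 TPM in FGF4 ICMs, and 3.40, 7.63 and 18.7 TPM in LY ICMs, against 0.23, 5.02, 5.10, 5.15 and 5.94 TPM in DMSO ICMs. LY+FGF4 ICMs held 3 zeros and 1 high value, replicate 5, while 4 of the 5 DMSO ICMs lay within 1 TPM of each other. The log2 difference of Insr was 1.17 for LY against DMSO (95% interval -0.50 to 2.84) and -2.11 for LY+FGF4 against FGF4 (interval -3.65 to -0.57). Their difference, the interaction, was -3.28 with an adjusted p of 0.555 in limma, and the 2 single comparisons had adjusted p of 0.806 and 0.118. Igf1r, the receptor of IGF1, was above 0 in 10 ICMs and at 1 TPM or more in only 4, with a maximum of 4.60 TPM in LY replicate 2.

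Transcripts of the insulin receptor substrates, adaptors that link these receptors to PI3K, were nearly absent from the libraries. Irs4 was listed at 0 in all 26 ICMs. Irs1 was above 0 in 3 FGF4 ICMs, at 0.25, 0.53 and 0.61 TPM, and was listed at 0 elsewhere. Irs2, a known FOXO target in liver, was above 0 in LY replicates 5 and 7, at 1.14 and 2.61 TPM, and in LY+FGF4 replicate 2, at 0.61 TPM. No FGF4 and no DMSO ICM had an Irs2 value above 0. With Igf1r these 3 adaptors did not reach 1 TPM in 5 libraries and were not tested, and at an unknown depth a listed 0 does not show absence.

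The class I catalytic subunits, which carry the lipid kinase activity that LY blocks, were among the least abundant components measured. Pik3ca (p110-alpha) had a lowest, median and highest level of 0, 3.06 and 10.3 TPM in LY+FGF4 ICMs, 0, 0.71 and 16.6 TPM in FGF4 ICMs, and 0, 2.56 and 5.26 TPM in LY ICMs, against 0, 0.44, 0.87, 1.05 and 2.47 TPM in DMSO ICMs. Pik3cd (p110-delta) was at 0 in 5 of 6 LY+FGF4, 5 of 8 FGF4, 3 of 7 LY and 1 of 5 DMSO ICMs, and its highest value was 37.2 TPM in FGF4 replicate 2. The highest of the 3 catalytic transcripts was Pik3ca in 11 ICMs, Pik3cb in 6 and Pik3cd in 6, and in 3 ICMs all were listed at 0. No catalytic isoform was thus the leading one throughout a group. Pik3c3, the class III enzyme Vps34 of autophagy and endosomes, was far higher, with medians of 9.28 TPM in LY+FGF4 ICMs, 11.3 TPM in FGF4 ICMs, 15.3 TPM in LY ICMs and 18.8 TPM in DMSO ICMs.

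Pik3cb (p110-beta) separated LY from LY+FGF4 ICMs only at the edge of the threshold. It was listed at 0 in all 6 LY+FGF4 ICMs and had a lowest, median and highest level of 0, 1.27 and 3.67 TPM in FGF4 ICMs and 0, 1.36 and 6.09 TPM in LY ICMs, against 0, 0.32, 0.33, 0.38 and 0.45 TPM in DMSO ICMs. DMSO values all lay below 1 TPM, and 5 of 7 LY values lay above 1 TPM. Only LY and FGF4 ICMs reached 1 TPM, so Pik3cb passed the expression filter through these groups alone. A call against LY therefore adds nothing to the values. The adjusted p in limma was 0.0459 for LY+FGF4 against LY, with no fold given because 1 group is at 0, and it was 0.456 for LY against DMSO. The Pik3cb call did not hold in 11 of 13 fits without 1 library and in 8 of 9 other settings. Among these, adding 2 near-identical copies to the gene gave an adjusted p of 0.0518 in limma. LY+FGF4 libraries also had the fewest genes detected, as given above, and with gene number in the fit the adjusted p was 0.279.

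The regulatory subunits, which stabilise the catalytic ones and dock them to receptors, were far more abundant at the transcript level. Pik3r2 (p85-beta) had a lowest, median and highest level of 18.6, 27.01 and 45.2 TPM in LY+FGF4 ICMs, 26.5, 41.3 and 48.9 TPM in FGF4 ICMs, and 12.2, 37.3 and 48.0 TPM in LY ICMs, against 25.3, 34.7, 37.0, 37.8 and 59.8 TPM in DMSO ICMs. Pik3r1 (p85-alpha) was at 15.8, 36.4 and 63.8 TPM in LY+FGF4 ICMs, 11.4, 31.1 and 46.6 TPM in FGF4 ICMs, and 6.30, 18.8 and 43.1 TPM in LY ICMs, against 5.97, 7.95, 12.6, 18 and 20.03 TPM in DMSO ICMs. Pik3r2 was the highest of the regulatory transcripts in 19 of 26 ICMs, including all 5 DMSO ICMs, and Pik3r1 in the other 7, of which 4 were LY+FGF4 ICMs. As a share of the summed regulatory TPM, Pik3r2 took 43.7% ± 18.8 in LY+FGF4 (SD, n = 6), 57.0% ± 13.7 in FGF4 (n = 8), 61.5% ± 14.2 in LY (n = 7) and 75.2% ± 7.9 in DMSO ICMs (n = 5). The ranges of these shares overlapped between all groups, and no comparison of Pik3r1 or Pik3r2 alone passed the threshold. Pik3r3 (p55-gamma) was listed at 0 in all LY ICMs and passed the expression filter through 5 libraries, the highest at 35.2 TPM in LY+FGF4 replicate 7 and 31.6 TPM in FGF4 replicate 8. It shares same-strand exons with the gene Gm49337, so its reads may be split.

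**Figure D2:**
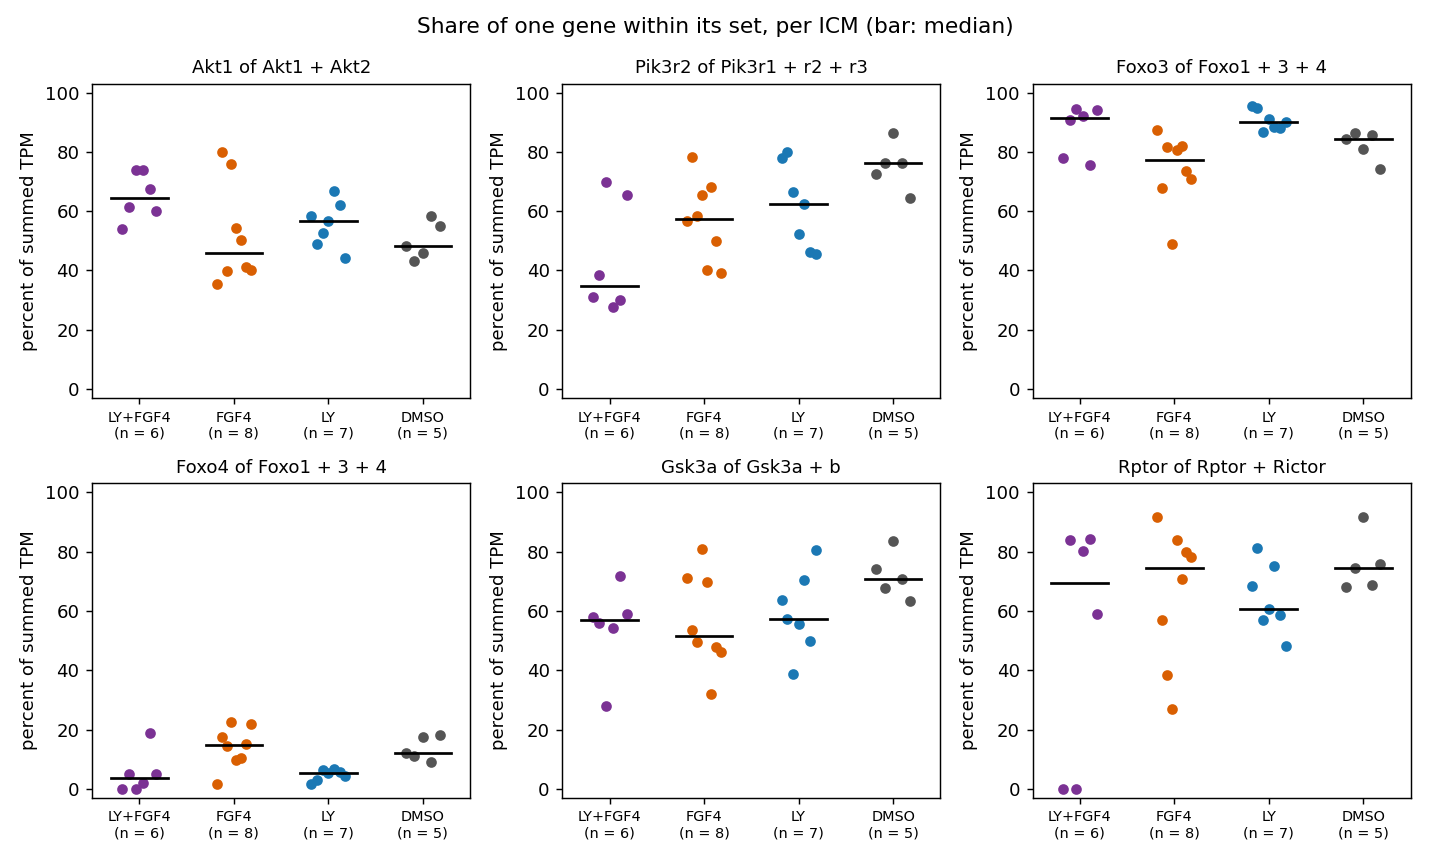
Share of 1 gene in the summed TPM of its set, in percent, for each ICM of the 4 groups, with a bar at the median. Pik3r2 holds 64.4% to 86.4% in the 5 DMSO ICMs, Foxo3 leads its set in every ICM, and Foxo4 holds 1.7% to 6.6% in LY ICMs and 9.2% to 18.1% in DMSO ICMs.

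Of the lipid phosphatases on the list, Inppl1 (SHIP2) removes the 5-phosphate of PIP3 and Inpp4a removes the 4-phosphate of its product. Inppl1 had medians of 13.4 TPM in LY+FGF4 ICMs, 18.9 TPM in FGF4 ICMs, 21.5 TPM in LY ICMs and 17.5 TPM in DMSO ICMs. Inpp4a was scattered, at 0 to 66.5 TPM in LY+FGF4 ICMs, 0 to 51.3 TPM in FGF4 ICMs, 2.22 to 139 TPM in LY ICMs, and 0.86, 0.95, 1.38, 4.65 and 27.9 TPM in DMSO ICMs. In 5 of 7 LY ICMs Inpp4a was at 26.6 TPM or more, a level reached by 1 DMSO ICM. The log2 difference for LY against DMSO was 2.64 with a standard error of 1.13 and an adjusted p of 0.462 in limma.

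Akt1, the AKT isoform best known for growth, was the 1 component called as higher with LY in the presence of FGF4. The gene lies at chr12:112653821-112674884 on the minus strand (GENCODE M21, GRCm38). Its level was 113, 125, 139, 186, 190.2 and 335 TPM in the 6 LY+FGF4 ICMs, against a lowest, median and highest of 32.5, 61.6 and 141 TPM in FGF4 ICMs. It was 56.8, 76.2 and 109 TPM in LY ICMs, against 57.9, 58.5, 71.2, 83.0 and 96.4 TPM in DMSO ICMs. Every LY+FGF4 ICM lay above every LY ICM, whereas the LY+FGF4 values overlapped those of 2 FGF4 ICMs, replicates 2 and 4, and the LY and DMSO values overlapped throughout. The log2 difference was 1.27 ± 0.30 (SE, 95% interval 0.66 to 1.89) for LY+FGF4 against FGF4, with an adjusted p of 0.0161 in limma. This was 1 of 32 tested components, where 3.55% of all tested genes passed. For LY against DMSO the difference was 0.09 (interval -0.58 to 0.75), and the interaction was 1.19 with an adjusted p of 0.638, so the 2 LY effects were not shown to differ.

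The number of genes detected moved with this result, since LY+FGF4 libraries had the fewest. With gene number as a covariate the Akt1 difference was 0.72 with an adjusted p of 0.339 in limma. Without the 6 libraries below 9000 genes it was 0.98 with an adjusted p of 0.255, and 2 LY+FGF4 ICMs then remained. A fit on the LY+FGF4 and FGF4 groups alone gave 1.27 with an adjusted p of 0.11, and library weights gave 1.31 with an adjusted p of 0.0504. In all 14 fits without 1 library the call was kept, with differences of 1.08 to 1.42.

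Akt2, the isoform best known from insulin-stimulated glucose uptake, stood near Akt1 in level and moved less. It was at 49.5, 74.5 and 285 TPM in LY+FGF4 ICMs, 31.4, 64.3 and 101 TPM in FGF4 ICMs, and 35.98, 71.5 and 79.9 TPM in LY ICMs (lowest, median and highest), against 67.9, 68.0, 68.3, 76.9 and 77.0 TPM in DMSO ICMs. The DMSO values lay closely together, and LY+FGF4 replicate 2, also the highest for Akt1, stood far above the others. Its log2 difference for LY+FGF4 against FGF4 was 0.53 ± 0.34 (SE) with an adjusted p of 0.405 in limma, and no comparison passed. Akt1 made up 65.1% ± 8.0 of the summed AKT TPM in LY+FGF4 (SD, n = 6), 52.2% ± 17.1 in FGF4 (n = 8), 55.7% ± 7.7 in LY (n = 7) and 50.2% ± 6.4 in DMSO ICMs (n = 5). Akt1 was the higher of the pair in all 6 LY+FGF4 ICMs, in 4 of 8 FGF4 ICMs, in 5 of 7 LY ICMs and in 2 of 5 DMSO ICMs. The test of Akt1 against Akt2 as a ratio was not run.

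RefSeq lists 2 start sites for Akt1, and both windows from 250 bases before to 50 bases after the start are shown. Akt1 was chosen as the 1 component called for LY+FGF4 against FGF4, and it was not called for LY against DMSO. They are on the minus strand of GRCm38.p6 and read 5′ to 3′, with capitals for the core motif of FOXO factors, GTAAACA or its reverse complement TGTTTAC.
Akt1 chr12:112674835-112675134: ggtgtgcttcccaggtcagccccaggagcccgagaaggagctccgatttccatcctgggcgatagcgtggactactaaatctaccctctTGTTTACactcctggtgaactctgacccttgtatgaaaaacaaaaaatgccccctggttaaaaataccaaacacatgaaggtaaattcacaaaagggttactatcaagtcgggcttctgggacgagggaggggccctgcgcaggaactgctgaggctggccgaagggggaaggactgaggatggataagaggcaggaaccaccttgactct
Akt1 chr12:112674227-112674526: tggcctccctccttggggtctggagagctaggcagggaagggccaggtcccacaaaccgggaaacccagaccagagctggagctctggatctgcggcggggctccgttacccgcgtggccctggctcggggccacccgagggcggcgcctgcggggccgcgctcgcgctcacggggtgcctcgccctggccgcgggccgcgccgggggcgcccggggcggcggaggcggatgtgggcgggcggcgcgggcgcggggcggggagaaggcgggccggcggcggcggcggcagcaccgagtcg
The upstream window holds the motif once, beginning at base -161 from the start, and the downstream window, with a GC content of 79.7%, holds none. Among 50 promoters of 31 components with a RefSeq entry, this was the only one with the motif (2.0%), against 2.39% of 11595 promoters of tested genes and 3.65% of all 32851 promoters, both strands searched. The match is a run of letters and not a shown binding site.

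The kinases around AKT differed more in level than in response. Pdpk1 (PDK1), which phosphorylates AKT and SGK, had medians of 21.9 TPM in LY+FGF4 ICMs, 21.4 TPM in FGF4 ICMs, 35.7 TPM in LY ICMs and 36.05 TPM in DMSO ICMs. Akt1s1 (PRAS40), an AKT substrate that holds back mTOR complex 1, was at 94.9, 150 and 344 TPM in LY+FGF4 ICMs, 86.4, 170.0 and 252 TPM in FGF4 ICMs, and 117, 158 and 224 TPM in LY ICMs (lowest, median and highest), against 217, 231, 258, 278 and 315 TPM in DMSO ICMs. LY replicate 3 was the one LY ICM that reached into the DMSO range. Akt1s1 had the smallest unadjusted p of the components for LY against DMSO, 0.0146, with a log2 difference of -0.72 ± 0.28 (SE) and an adjusted p of 0.373 in limma. With library weights its adjusted p was 0.0469 at a difference of -0.67.

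Sgk1, a relative of AKT that also acts downstream of PDK1 and mTOR complex 2, was lower in LY+FGF4 than in LY ICMs. It lies at chr10:21882184-21999903 on the plus strand. Its level was 0, 0, 0, 58.1, 72.5 and 95.4 TPM in the 6 LY+FGF4 ICMs, against a lowest, median and highest of 24.9, 237 and 818 TPM in LY ICMs. It was 5.66, 47.8 and 112 TPM in FGF4 ICMs, against 202, 234, 283, 297 and 379 TPM in DMSO ICMs. All FGF4 values lay below all DMSO values, and the LY+FGF4 values overlapped those of LY only in LY replicate 6, at 24.9 TPM. The log2 difference was -4.67 ± 1.00 (SE) for LY+FGF4 against LY, with an adjusted p of 0.00577 in limma, and -2.94 ± 1.02 with an adjusted p of 0.131 for FGF4 against DMSO. Of all tested genes, 1.63% had every FGF4 value below every DMSO value.

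The Sgk1 difference between LY+FGF4 and LY kept its call in all 13 fits without 1 library and had an adjusted p of 0.109 in limma with gene number as a covariate. Gene number and treatment cannot be separated between these groups, as given above. For FGF4 against DMSO, Sgk1 passed the threshold in 3 other settings, with an adjusted p of 0.00949 in the fit on these groups alone, 0.0163 with library weights and 0.0263 without the libraries below 9000 genes. That last setting also called it for LY+FGF4 against FGF4, at -5.51 with an adjusted p of 0.00188. The 2 LY+FGF4 ICMs it keeps, replicates 6 and 7, both had Sgk1 at 0.

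The GSK3 kinases, which AKT inhibits and which mark beta-catenin and glycogen synthase for restraint, were both present in every ICM. Gsk3a was at 16.7, 37.1 and 52.7 TPM in LY+FGF4 ICMs, 7.83, 16.7 and 58.7 TPM in FGF4 ICMs, and 12.7, 29.9 and 59.6 TPM in LY ICMs (lowest, median and highest), against 35.8, 41.2, 54.7, 70.8 and 83.7 TPM in DMSO ICMs. Gsk3b was at 13.98, 26.9 and 90.4 TPM in LY+FGF4 ICMs, 8.10, 13.9 and 28.4 TPM in FGF4 ICMs, and 14.2, 16.4 and 30.3 TPM in LY ICMs, against 13.9, 14.8, 24.0, 26.0 and 29.2 TPM in DMSO ICMs. Gsk3a exceeded Gsk3b in 19 of 26 ICMs and in all 5 DMSO ICMs. For FGF4 against DMSO the log2 difference of Gsk3a was -1.49 ± 0.45 (SE) with an adjusted p of 0.0758 in limma, and 0.0329 without FGF4 replicate 4. An antisense transcript shares exons with Gsk3a, and the counting may not have used strand.

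Tsc1 and Tsc2, the complex that switches RHEB off, and Rheb, the GTPase that activates mTOR complex 1, did not pass the threshold in any comparison. Rheb was the most abundant of the 3, with medians of 77.0 TPM in LY+FGF4 ICMs, 72.1 TPM in FGF4 ICMs, 80.1 TPM in LY ICMs and 123 TPM in DMSO ICMs. Tsc1 had medians of 22.9 TPM in LY+FGF4 ICMs, 22.2 TPM in FGF4 ICMs, 20.9 TPM in LY ICMs and 26.9 TPM in DMSO ICMs. Tsc2 had medians of 20.9 TPM in LY+FGF4 ICMs, 24.6 TPM in FGF4 ICMs, 22.8 TPM in LY ICMs and 15.2 TPM in DMSO ICMs, and its exons overlap those of Pkd1 on the other strand.

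Transcripts of the mTOR kinase and of its defining partners were low beside those of AKT. Mtor had a lowest, median and highest level of 0, 8.64 and 54.5 TPM in LY+FGF4 ICMs, 3.14, 7.70 and 42.2 TPM in FGF4 ICMs, and 3.12, 5.11 and 7.32 TPM in LY ICMs, against 1.93, 2.51, 5.36, 5.63 and 6.81 TPM in DMSO ICMs. Rptor, the defining subunit of mTOR complex 1, was at 0, 4.64 and 69.1 TPM in LY+FGF4 ICMs, 3.39, 18.6 and 39.7 TPM in FGF4 ICMs, and 9.85, 15.5 and 29.7 TPM in LY ICMs, against 10.8, 13.9, 15.6, 23.8 and 30.7 TPM in DMSO ICMs. Rptor exceeded Rictor, the defining subunit of complex 2, in 21 of 26 ICMs. Rictor had medians of 7.95 TPM in LY+FGF4 ICMs, 8.41 TPM in FGF4 ICMs, 9.83 TPM in LY ICMs and 6.49 TPM in DMSO ICMs, within a range of 0.35 to 20.6 TPM.

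The log2 difference of Rptor was -1.67 for LY+FGF4 against FGF4 with an adjusted p of 0.225 in limma, and -2.40 with an adjusted p of 0.0392 without LY+FGF4 replicate 7, the ICM with 69.1 TPM. Deptor, an inhibitor that binds mTOR in both complexes, was at 0, 32.4 and 125 TPM in LY+FGF4 ICMs, 6.68, 30.3 and 85.2 TPM in FGF4 ICMs, and 36.1, 50.8 and 89.9 TPM in LY ICMs, against 21.3, 29.6, 34.1, 44.0 and 60.7 TPM in DMSO ICMs. The groups of Deptor overlapped, and its difference for LY against DMSO was 0.59 (95% interval -1.03 to 2.21). Mlst8, which both complexes share, had medians of 25.2 TPM in LY+FGF4 ICMs, 23.04 TPM in FGF4 ICMs, 22.4 TPM in LY ICMs and 21.1 TPM in DMSO ICMs, and it overlaps Bricd5 on the other strand.

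Downstream of mTOR complex 1, Eif4ebp1, which blocks the cap-binding factor eIF4E until mTOR phosphorylates it, was the most abundant component. It was at 331, 693 and 753 TPM in LY+FGF4 ICMs, 436, 690 and 922 TPM in FGF4 ICMs, and 302, 642 and 705 TPM in LY ICMs (lowest, median and highest), against 392, 420, 499, 499.7 and 612 TPM in DMSO ICMs. In DMSO ICMs its mean exceeded that of 96.7% of the tested genes. In 4 LY ICMs it was at 642 TPM or more and in the other 3 at 343 TPM or less, and the difference from DMSO was 0.05 (95% interval -0.44 to 0.54). Rps6kb1 (S6K1), which phosphorylates ribosomal protein S6, had medians of 65.4 TPM in LY+FGF4 ICMs, 30.3 TPM in FGF4 ICMs, 54.7 TPM in LY ICMs and 43.1 TPM in DMSO ICMs. Its difference for LY+FGF4 against FGF4 was 1.11 with an adjusted p of 0.159 in limma, and 0.047 without LY+FGF4 replicate 8.

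Eif4e, the factor that binds the mRNA cap, was higher wherever FGF4 had been added. It lies at chr3:138526179-138559696 on the plus strand. Its level was 207, 268, 343, 621, 698 and 852 TPM in the 6 LY+FGF4 ICMs, against a lowest, median and highest of 121, 181 and 237 TPM in LY ICMs. It was 363, 569 and 971 TPM in FGF4 ICMs, against 155, 164, 167, 219 and 299 TPM in DMSO ICMs. Every FGF4 ICM lay above every DMSO ICM, which held for 1.13% of the tested genes, and 1 LY+FGF4 ICM, replicate 7, fell inside the LY range. The log2 difference was 1.56 ± 0.30 (SE) for FGF4 against DMSO, with an adjusted p of 0.0041 in limma. This was the only one of the 32 tested components past the threshold, where 2.44% of all genes passed. It was 1.34 ± 0.29 with an adjusted p of 0.00646 for LY+FGF4 against LY, and LY itself made no called difference, at -0.18 without FGF4 and -0.40 with it.

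**Figure D3:**
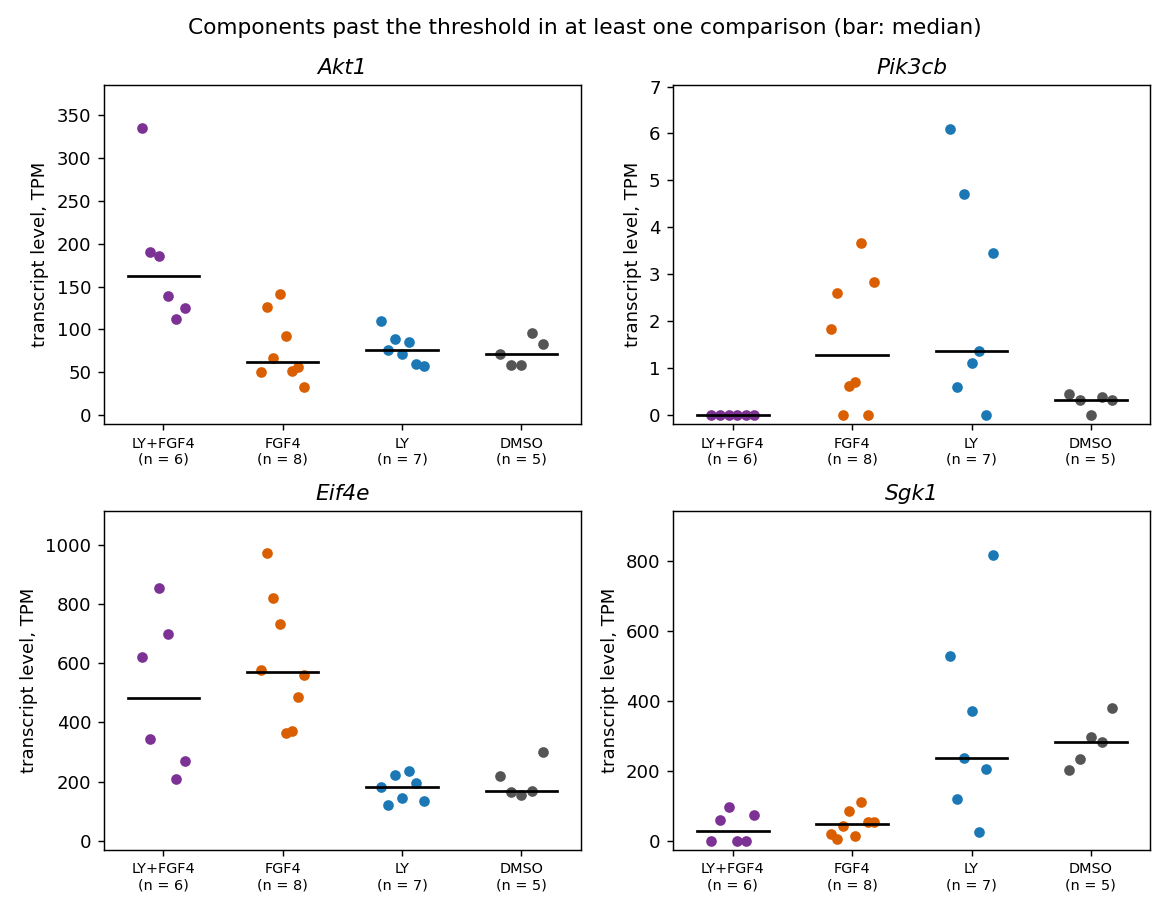
Transcript level in TPM of the 4 components past the threshold in at least 1 comparison, with 1 point per ICM and a bar at the median. Akt1 is highest in LY+FGF4 ICMs, Eif4e is high in both groups with FGF4 and Sgk1 is low in both, and Pik3cb is at 0 in all 6 LY+FGF4 ICMs.

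A processed pseudogene, Gm7327, matches the Eif4e transcript at 98.6% over 654 bases, so reads of the pair could be exchanged in counting. Its medians were 101 TPM in LY+FGF4 ICMs, 146 TPM in FGF4 ICMs, 10.98 TPM in LY ICMs and 10.7 TPM in DMSO ICMs, the same order of groups as its parent. With both added together the log2 difference was 1.81 for FGF4 against DMSO, with an adjusted p of 0.00284 in limma, and 1.53 for LY+FGF4 against LY, with an adjusted p of 0.00536. The ratio of Eif4ebp1 to Eif4e in TPM was 1.56 ± 0.74 in LY+FGF4 (SD, n = 6), 1.27 ± 0.55 in FGF4 (n = 8), 3.10 ± 1.37 in LY (n = 7) and 2.56 ± 0.84 in DMSO ICMs (n = 5), with no test of the ratio. Primitive endoderm markers moved with Eif4e in the FGF4 comparisons. Of 9 tested, 5 were higher and none lower in FGF4 against DMSO ICMs, and 6 were higher in LY+FGF4 against LY ICMs. In the LY comparisons, where Eif4e was not called, 2 of the 9 were lower against DMSO and 2 in LY+FGF4 against FGF4 ICMs. For the mean LY effect 4 of the 9 were lower, and none was higher in any LY comparison. Of 8 epiblast markers, 5 were lower in FGF4 against DMSO ICMs and 4 were lower in LY+FGF4 against LY ICMs. Sgk1 was called lower in LY+FGF4 against LY ICMs but not in FGF4 against DMSO ICMs (adjusted p of 0.131 in limma). Of all genes, 2.44% passed for FGF4 against DMSO and 6.3% for LY+FGF4 against LY. Of 8 tested trophectoderm markers, 2 were lower in each of these comparisons. The part of these markers in the results was not tested. With gene number as a covariate the Eif4e differences were 1.33 (adjusted p of 0.0215 in limma) and 0.86 (adjusted p of 0.263). The value of 0.86, for LY+FGF4 against LY, comes from groups whose gene numbers did not overlap.

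One of the 2 RefSeq windows of Eif4e, on the plus strand of GRCm38.p6, is shown because Eif4e is the one component called for FGF4 against DMSO, with capitals for the E-box CACGTG, a palindrome bound by MYC and related factors.
Eif4e chr3:138527018-138527317: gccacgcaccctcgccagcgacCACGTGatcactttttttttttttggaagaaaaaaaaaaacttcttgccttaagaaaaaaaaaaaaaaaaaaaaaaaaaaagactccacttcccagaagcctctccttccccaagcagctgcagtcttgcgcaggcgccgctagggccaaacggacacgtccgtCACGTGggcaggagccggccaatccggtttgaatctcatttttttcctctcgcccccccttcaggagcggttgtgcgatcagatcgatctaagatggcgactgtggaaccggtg
The E-box begins at bases -228 and -64 from the start, and the other window, at chr3:138525941-138526240, holds none. It was found in 7 of the 50 component promoters, against 10.3% of promoters of tested genes and 7.15% of all promoters, and 1 of the Sgk1 windows holds it at -246. These are matches of letters and say nothing of which factor acts there.

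Foxo3 was the leading FOXO transcript in all 26 ICMs. FOXO factors switch on growth arrest, stress and insulin receptor genes when AKT does not hold them in the cytoplasm. Foxo3 was at 49.7, 117 and 237 TPM in LY+FGF4 ICMs, 19.0, 77.6 and 151 TPM in FGF4 ICMs, and 126, 163 and 232 TPM in LY ICMs (lowest, median and highest), against 87.2, 113, 136, 162 and 181 TPM in DMSO ICMs. Foxo4 was at 0, 6.66 and 18.9 TPM in LY+FGF4 ICMs, 2.30, 11.02 and 26.3 TPM in FGF4 ICMs, and 3.20, 8.37 and 16.5 TPM in LY ICMs, against 12.1, 21.3, 23.2, 23.4 and 29.7 TPM in DMSO ICMs. LY replicate 4 was the only LY ICM inside the DMSO range of Foxo4. Foxo1 was at 1.52, 7.11 and 14.2 TPM in LY+FGF4 ICMs, 3.86, 10.5 and 14.5 TPM in FGF4 ICMs, and 5.15, 8.58 and 19.1 TPM in LY ICMs, against 2.78, 5.45, 6.79, 7.08 and 9.15 TPM in DMSO ICMs.

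Foxo4 had a log2 difference of -1.26 ± 0.68 (SE) for LY against DMSO and -1.17 ± 0.63 for LY+FGF4 against FGF4. Averaged over both, the mean LY effect on Foxo4 was -1.22 ± 0.46 with an adjusted p of 0.132 in limma. The share of Foxo4 in the summed FOXO TPM was 5.2% ± 7.0 in LY+FGF4 (SD, n = 6), 14.2% ± 6.9 in FGF4 (n = 8), 4.7% ± 1.8 in LY (n = 7) and 13.6% ± 4.0 in DMSO ICMs (n = 5). Each LY share was below each DMSO share, whereas the Foxo4 levels themselves overlapped and were not called (adjusted p of 0.655 in limma). How often shares of other genes separate in this way was not computed. The share of Foxo3 was 87.4% ± 8.5 in LY+FGF4, 74.1% ± 12.1 in FGF4, 90.6% ± 3.4 in LY and 82.2% ± 5.0 in DMSO ICMs, and the shares were not tested.

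For LY against DMSO as a whole, 0 of 32 tested components passed the threshold in limma. An unadjusted p under 0.05 was found for 3 of the 32 (Akt1s1, Pik3cb and Inpp4a), beside 1034 of all 12034 genes. Of all tested genes, 0.374% passed, 9 of them higher and 36 lower, or 8 higher and 11 lower with gene number as a covariate. The median log2 difference of the components was 0.06, with 18 positive and 14 negative, beside -0.10 over all tested genes. For LY+FGF4 against FGF4 the components' median was -0.31, with 9 positive and 23 negative, beside -0.24 over all genes, of which 87 were higher and 340 lower, or 113 higher and 74 lower with gene number as a covariate. For the mean LY effect 0 components passed, where 4.64% of all genes passed. An unadjusted p under 0.05 was found for 4 components, beside 2308 of all 12034 genes. Akt1 came closest, at 0.68 ± 0.22 (SE) with an adjusted p of 0.0747, and the components' median was -0.03, beside -0.18 over all genes. The interaction called 0 components and 0.0499% of all genes. An unadjusted p under 0.05 was found there for 5 components, beside 726 of all 12034 genes.

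**Figure D4:**
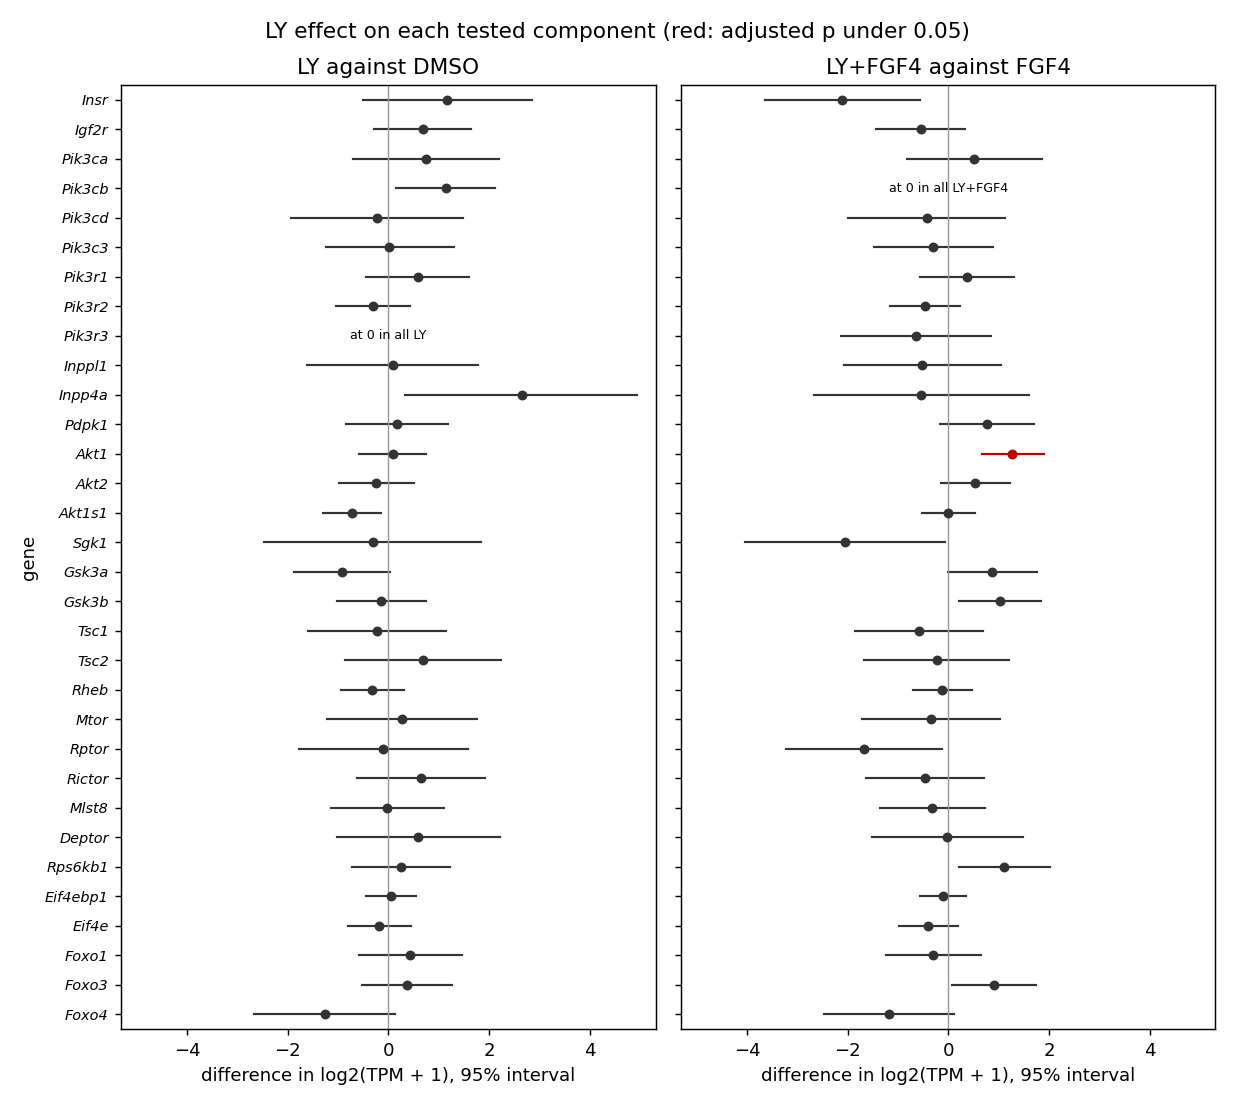
Difference in log2(TPM + 1) with its 95% interval for each of the 32 tested components, for LY against DMSO on the left and LY+FGF4 against FGF4 on the right, in red where the adjusted p is under 0.05. Akt1 on the right, at 1.27, is the only red point, and most intervals include 0; genes listed at 0 in a whole group are named in words.

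For LY+FGF4 against LY, 4 of 32 passed, where 6.3% of all genes passed. These were Akt1 (1.13 ± 0.31, adjusted p of 0.0264 in limma), Eif4e, Sgk1 and Pik3cb, the last with the filter limit given above. Akt1 was the only component whose groups did not overlap there, which held in that direction for 0.623% of all genes. Without LY+FGF4 replicate 2 the Akt1 call against LY was lost, as it was without LY replicate 8. The comparisons with LY+FGF4 share that group's libraries, and those with DMSO share the 5 DMSO libraries, so their values are not independent of each other. After quantile normalization, which sets all libraries to 1 distribution, the median over all genes moved by 0.23 for LY+FGF4 against FGF4 and by 0.21 for LY+FGF4 against LY. Relative to the median of all genes as deposited, Akt1 was 1.51 and 1.37 higher in these comparisons.

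Of 70 other genes of the pathway, 56 were tested. LY against DMSO called 0 of these, where 0.374% of all genes passed. An unadjusted p under 0.05 in limma was found there for 4 of the 56, beside 1034 of all 12034 genes. LY+FGF4 against FGF4 called 6, with 1 higher and 5 lower, where 3.55% of all genes passed. The mean LY effect called 4, with 1 higher and 3 lower, where 4.64% of all genes passed. Of the 6 genes, Grb10 and Ddit4 kept their call in all 9 other settings, and Igf1, Rragc, Lamtor1 and Prr5 lost theirs in 4 or more. Both Grb10 and Ddit4 act against the pathway, Grb10 by binding insulin and IGF receptors and Ddit4 (REDD1) by switching on the TSC complex when cells are stressed.

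Grb10 was raised by FGF4 and was low again when LY was added. Its level was 3.71, 6.91, 11.8, 15.02, 24.5 and 53.7 TPM in the 6 LY+FGF4 ICMs, against a lowest, median and highest of 54.4, 66.4 and 167 TPM in FGF4 ICMs. It was 3.76, 8.28 and 12.6 TPM in LY ICMs, against 5.16, 5.41, 16.5, 17.03 and 17.2 TPM in DMSO ICMs. All FGF4 ICMs lay above all DMSO ICMs. All LY+FGF4 ICMs lay below all FGF4 ICMs, which held for 0.49% of all tested genes. The log2 difference was -2.36 ± 0.48 (SE) for LY+FGF4 against FGF4 with an adjusted p of 0.00555 in limma, and 2.70 ± 0.51 with an adjusted p of 0.00375 for FGF4 against DMSO. For LY against DMSO it was -0.51 (95% interval -1.58 to 0.56), and the interaction, -1.85, had an adjusted p of 0.657. The first of these calls held in all 9 other settings and all 14 fits without 1 library, at an adjusted p of 0.00321 with gene number as a covariate.

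**Figure D5:**
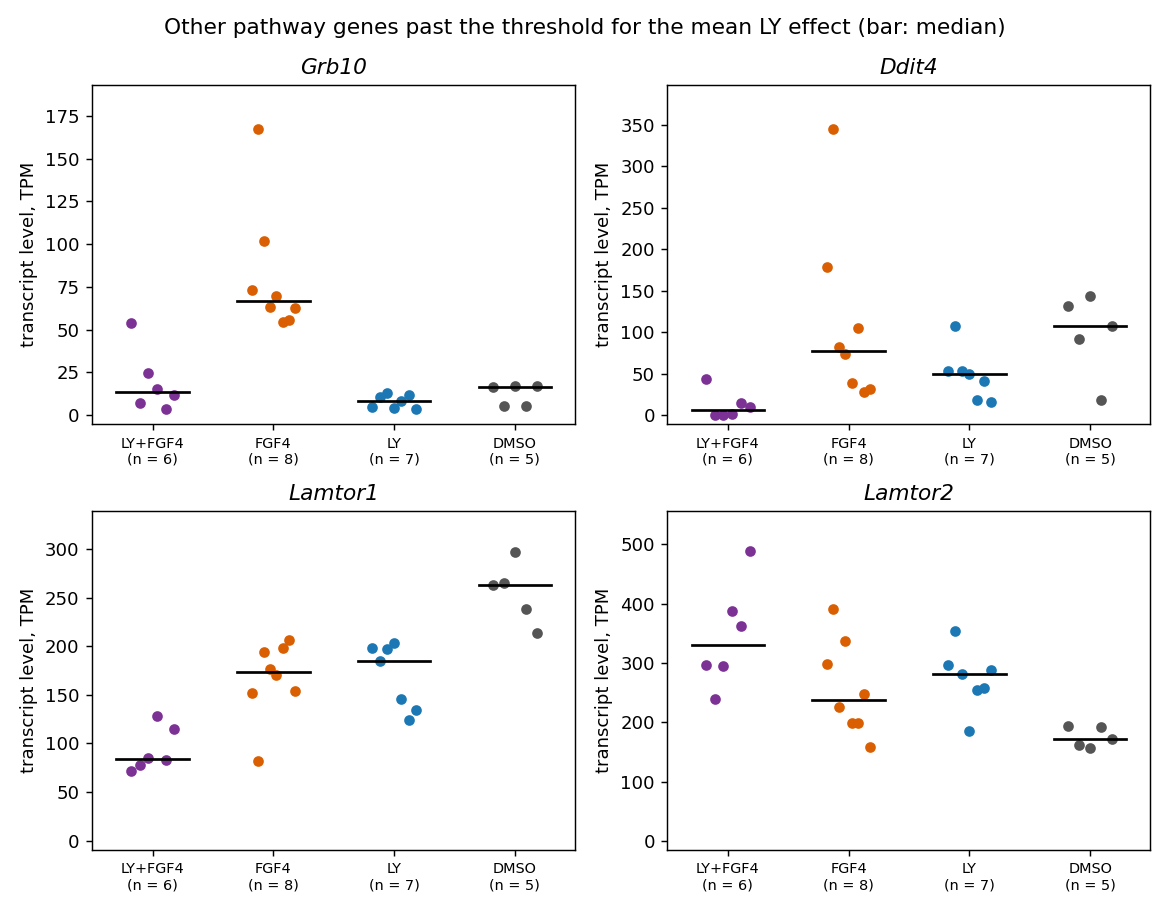
Transcript level in TPM of the 4 other pathway genes past the threshold for the mean LY effect, with 1 point per ICM and a bar at the median. Grb10 lies between 54.4 and 167 TPM in FGF4 ICMs and at or below 53.7 TPM in every other ICM, and Lamtor1 is lowest in LY+FGF4 and highest in DMSO ICMs.

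Lamtor1 and Lamtor2, subunits of the Ragulator complex that anchors mTOR complex 1 to lysosomes, went in opposite directions. Lamtor1 was at 71.7, 84.1 and 128 TPM in LY+FGF4 ICMs, 82.2, 174 and 207 TPM in FGF4 ICMs, and 124, 185 and 204 TPM in LY ICMs (lowest, median and highest), against 214, 238, 263, 265 and 297 TPM in DMSO ICMs. Every LY ICM lay below every DMSO ICM, as for 1.54% of all tested genes, yet that comparison alone had an adjusted p of 0.343 in limma at -0.60. The mean LY effect on Lamtor1 was -0.71 ± 0.15 (SE) with an adjusted p of 0.0064. Lamtor2 was at 239, 330 and 490 TPM in LY+FGF4 ICMs, 159, 237 and 391 TPM in FGF4 ICMs, and 185, 282 and 354 TPM in LY ICMs, against 157, 161, 172, 193 and 193 TPM in DMSO ICMs. Its mean LY effect was 0.53 ± 0.15 with an adjusted p of 0.0322. With gene number as a covariate both mean effects lost their call, at -0.52 (adjusted p of 0.165) for Lamtor1 and 0.43 (adjusted p of 0.252) for Lamtor2. The Lamtor2 call was also lost in 5 of 26 fits without 1 library, those without DMSO replicates 6, 7 or 9, LY replicate 3 or LY+FGF4 replicate 8.

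Ddit4 was lower in LY+FGF4 than in FGF4 ICMs, at -3.92 ± 0.73 (SE) with an adjusted p of 0.0028 in limma. For LY against DMSO it was not called, at -0.99 with an adjusted p of 0.857, and the mean of both effects was -2.45 ± 0.54 with an adjusted p of 0.00783. Its levels were 0, 5.75 and 43.8 TPM in LY+FGF4 ICMs, 27.9, 77.8 and 345 TPM in FGF4 ICMs, and 15.2, 49.2 and 107 TPM in LY ICMs, against 18.3, 91.7, 108, 131 and 144 TPM in DMSO ICMs. Prr5, a subunit of mTOR complex 2, was at 0 in 3 of the LY+FGF4 ICMs and had medians of 1.00 TPM there and 26.7 TPM in FGF4 ICMs, a difference of -2.95 with an adjusted p of 0.0121. That call was lost in 4 of 9 other settings, with differences of -4.68 to -1.70 and an adjusted p of up to 0.412 over the 9. Rragc, a RAG GTPase that brings mTOR complex 1 to lysosomes, was the higher one, with medians of 54.7 TPM in LY+FGF4 ICMs and 19.3 TPM in FGF4 ICMs, and its call was lost in 8 of 14 fits without 1 library. Igf1, a ligand of Igf1r, was listed at 0 in every ICM except 6 of the 8 FGF4 ICMs, which reached 55.3 TPM. Igf1 passed the expression filter only through 5 FGF4 ICMs, so its call for LY+FGF4 against FGF4, counted above, adds nothing to these values. For LY+FGF4 against LY, 5 genes of this list were lower and 0 higher, Rps6kb2 (S6K2), Castor1, Prr5, Lamtor1 and Ddit4, where 6.3% of all genes passed. Each of these 5 calls was lost in 1 to 4 of 9 other settings, and that of Castor1 also without LY replicate 4. FGF4 against DMSO called 1 gene, Grb10.

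Of 31 textbook FOXO targets, 22 were tested, and they included the members Insr, Pik3ca and Rictor. None passed for LY against DMSO, where 0.374% of all genes passed, and the median difference was 0.12. An unadjusted p under 0.05 in limma was found for 2 of the 22, beside 1034 of all 12034 genes. The mean LY effect called 1 gene, Gadd45a, a growth arrest and DNA damage gene, which was lower at -2.83 ± 0.71 (SE) with an adjusted p of 0.0188 in limma, where 4.64% of all genes passed. The call was lost with gene number as a covariate, at -1.12 with an adjusted p of 0.519, and with the replicate block, at -2.44 with an adjusted p of 0.135. Gadd45a was at 0 in 4 of 6 LY+FGF4, 2 of 8 FGF4, 5 of 7 LY and 0 of 5 DMSO ICMs, and its median was 20.9 TPM in FGF4 and 26.8 TPM in DMSO ICMs. For LY+FGF4 against FGF4, 3.55% of all genes passed. Txnip, an inhibitor of thioredoxin and glucose uptake, was called there, lower at -2.23 ± 0.55 with an adjusted p of 0.0217 in limma. That call was lost in 6 of 9 other settings, with an adjusted p of up to 0.212, and without LY+FGF4 replicate 8. Bnip3, a mitophagy receptor, and Sod2, a mitochondrial superoxide dismutase, were lower in LY+FGF4 than in LY ICMs, by -1.81 and -0.77, and Sod2 was also lower in FGF4 than in DMSO ICMs, by -0.88. The Bnip3 call held in all 9 other settings, while that of Sod2 was lost in 4 of 9 against LY and without LY+FGF4 replicate 2, and in 1 of 9 against DMSO and without DMSO replicate 3 or 7. None of the FOXO targets was called higher in any of these comparisons, which called 9 to 216 of all 12034 genes higher.

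In 15 of the 36 components an annotated exon of another gene overlaps, and whether the counting used strand is not given in the sources used here. Beside Gsk3a, Tsc2, Mlst8 and Pik3r3 these are Irs1, Irs2, Irs4, Pik3r2, Inppl1, Akt1s1, Rptor, Deptor, Rps6kb1, Eif4e and Foxo1. Akt1, Akt2, Sgk1, Foxo3 and Foxo4 have no such overlap in GENCODE M21, and a pseudogene copy of Akt2 did not exceed 5.9 TPM.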

How the data were processed

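Whole-transcriptome libraries of 26 single ICMs were made with a modified FLASH-seq protocol on polyadenylated RNA. Per the labels' protocols, reads were trimmed and de-duplicated. STAR, RSEM and mm10 are named in the submitters' processing notes, and both the annotation and any use of strand were not given in the sources used here. Deposited by the authors was 1 table of TPM values, each library summing to about 1000000, so sequencing depth is unknown and no counting interval can be given.

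From these values log2(TPM + 1) was computed. Genes at 1 TPM or more in at least 5 libraries were kept (12034 of 55254), which kept 32 of the 36 components. A model with 4 group means was fitted to all 26 libraries in limma 3.58.1 (R 4.3.3, trend and robust moderation, two-sided, Benjamini-Hochberg over all tested genes, threshold 0.05). Differences are on the log2(TPM + 1) scale, which understates those of low genes. The script was first tested on simulated data. The ICMs are separate embryos, so p-values measure the spread between them. Members and gene lists were chosen with earlier results of these data known.

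All components, and of the other pathway genes those past the threshold in the LY comparisons, were named by rule, and the called FOXO targets and the genes of the FGF4 comparisons were named after their values were seen. Alternatives were another pseudocount, no filter, quantile normalization, a replicate block, gene number as a covariate, library weights, leaving out libraries, fits on the compared groups alone and, chosen after seeing the data, summed near-identical copies. Replicate numbers were not used as pairs in the main fit. None of 31 same-numbered pairs had deviations correlated above 0.1. Pairs of different numbers were not computed beside them, so a shared day or batch was not tested. Coordinates are from GENCODE M21 (GRCm38), which holds 53255 of the table's symbols. Promoter windows are from RefSeq (GRCm38.p6). Protein sequences were not used here.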

Additional observations from a re-analysis of the deposited data

Results flagged for a closer look

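Single ICMs that stood far from the rest of their group, by Dixon's criterion, were found in 26 of 126 checks of a component in a group. Chance gives about 1 in 20 for normally distributed values only. TPM values with zeros and high single values are not of that kind, so the count cannot be set against that rate. These are values only, and most are high values of 1 embryo. In LY+FGF4 ICMs, replicate 2 was highest for Akt1 at 335.4 TPM, for Akt2 at 285.48 TPM and for Inppl1 at 150.8 TPM. Replicate 5 was highest for Gsk3b at 90.37 TPM, for Insr at 13.2 TPM and for Pik3cd at 14.12 TPM. Replicate 7 was highest for Pik3r3 at 35.16 TPM and lowest for Eif4ebp1 at 330.72 TPM. Replicate 6 was highest for Mtor at 54.54 TPM, and replicate 8 for Akt1s1 at 343.99 TPM.

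In FGF4 ICMs, replicate 1 was highest for Deptor at 85.21 TPM, for Igf2r at 82.8 TPM and for Mtor at 42.18 TPM. The highest Pik3ca value, 16.55 TPM, was in replicate 7. The highest Pik3cd value, 37.19 TPM, was in replicate 2. The highest Pik3r3 value, 31.55 TPM, was in replicate 8, and the highest Rictor value, 20.64 TPM, in replicate 3.

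In LY ICMs, replicate 4 was highest for Foxo1 at 19.1 TPM and for Inppl1 at 93.91 TPM, replicate 3 for Mlst8 at 61.82 TPM and replicate 5 for Rheb at 169.67 TPM. In DMSO ICMs, replicate 7 was highest for Inppl1 at 34.33 TPM and for Tsc1 at 45.28 TPM and lowest for Pik3cb at 0 TPM. DMSO replicate 6 was lowest for Insr at 0.23 TPM, and DMSO replicate 9 was highest for Inpp4a at 27.87 TPM.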

How the results depend on the processing

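No difference of a named gene that passed the threshold changed sign under the alternatives run, but the balance of higher and lower calls did. Of all tested genes, LY against DMSO called 45, and 5 with the replicate block, 19 with gene number as a covariate, 496 with library weights, 134 without the libraries below 9000 genes and 179 with the compared groups alone. In the same order of settings, LY+FGF4 against FGF4 called 427, against 224, 187, 111, 171 and 80. The mean LY effect called 558, against 219 with the block and 268 with gene number. The interaction called 6, against 2 with the block and 27 without the low libraries. FGF4 against DMSO called 294, against 41 with the block, 181 with gene number, 1074 with weights and 470 without the low libraries. LY+FGF4 against LY called 758, against 108 with gene number, 356 with weights and 400 with the groups alone. Quantile normalization gave 128 higher and 190 lower for LY+FGF4 against FGF4, 199 and 297 for the mean LY effect, 271 and 409 for LY+FGF4 against LY, and 184 and 211 for FGF4 against DMSO. As reported these were 87 and 340, 125 and 433, 216 and 542, and 118 and 176 in that order. Gene number gave 113 higher and 74 lower for LY+FGF4 against FGF4, 160 and 108 for the mean LY effect, 53 and 55 for LY+FGF4 against LY, 90 and 91 for FGF4 against DMSO, and 8 and 11 for LY against DMSO (9 and 36 as reported).

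Among the components, LY against DMSO called 0, and 1 (Akt1s1) with weights. LY+FGF4 against FGF4 called 1, and 0 with gene number, weights or the groups alone; without the low libraries it called 1, Sgk1 as lower, in place of Akt1 as higher. The mean LY effect called 0, and 1 with weights (Akt1) or without the low libraries (Sgk1). The interaction called 0, and 1 without the low libraries (Sgk1, -5.20, adjusted p of 0.0387 in limma). FGF4 against DMSO called 1, and 0 with the block (Eif4e, adjusted p of 0.0593), 5 with weights, and 2 without the low libraries or with the groups alone. LY+FGF4 against LY called 4, and 0 with gene number, 2 with weights and 1 without the low libraries. Gene number did not overlap between LY+FGF4 and LY libraries, so its loss of calls cannot be read apart from treatment. The block also took the Grb10 call for FGF4 against DMSO (adjusted p of 0.0801). The cause of these moves was not tested, except that leaving out the low libraries keeps 2 LY+FGF4 ICMs.

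Leaving out 1 library gave 16 to 50 genes for LY against DMSO (lowest without DMSO replicate 9), 282 to 589 for LY+FGF4 against FGF4, 401 to 670 for the mean LY effect, 2 to 11 for the interaction, 112 to 431 for FGF4 against DMSO (lowest without DMSO replicate 7) and 528 to 872 for LY+FGF4 against LY. Components called were 0 to 0, 1 to 2, 0 to 1, 0 to 0, 1 to 2 and 2 to 4 in the same comparisons. Those gained were Insr, Rptor and Rps6kb1 without LY+FGF4 replicates 5, 7 and 8 in that order, Akt1 for the mean LY effect without FGF4 replicate 2 or 4, and Gsk3a without FGF4 replicate 4. The 31 same-numbered pairs had a median correlation of -0.00406 (-0.0824 to 0.068), and whether the block shares more than a number was not tested. Depth is unknown, and components at a few TPM are limited by it.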
